A study of Rattus norvegicus with 418 samples.

Results

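Atf4, Ddit3, Trib3, Asns, Chac1, Sesn2, Gdf15 and Fgf21 were followed in the livers of rats given 8 hepatotoxicants. The genes were chosen by name, with earlier results of these data known. They are the transcription factor ATF4, 5 genes of its stress response and 2 secreted hormones that the response can raise. They were 8 of the 14217 genes measured. Where the array held several probe sets for a gene, the one with the highest mean signal over all arrays was used. Trib3 had 3 probe sets and Sesn2 had 2. Every dosed group was compared with the vehicle group of the same compound and time.

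In the integrated stress response, kinases that sense amino acid shortage, misfolded protein in the endoplasmic reticulum (ER), viral RNA or lack of heme phosphorylate the initiation factor eIF2 alpha. Most protein synthesis then falls while the ATF4 messenger is translated more, and ATF4 protein turns on genes of amino acid supply, glutathione turnover and cell fate. In liver the same response reaches other organs through the circulating hormones FGF21 and GDF15. Arrays measure messenger levels only, so ATF4 protein was not measured. Several of the genes also answer to other factors: Sesn2 and Gdf15 are known p53 targets, Fgf21 is known to be raised by PPAR alpha during fasting, and Ddit3 is shared with other branches of the ER stress response.

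Livers were measured on Affymetrix arrays, 1 array per rat, in 74 dosed groups (318 rats) and 24 vehicle groups (100 rats), at 6, 24 or 48 h after dosing. All were male F344/N rats, 10 to 12 weeks old, fasted for 12 to 18 h before exposure, and RNA came from the left lateral lobe. By gavage in corn oil, 280 rats received 1,2-dichlorobenzene or 1,4-dichlorobenzene (15, 150 or 1500 mg/kg each), bromobenzene (25, 75 or 250 mg/kg), monocrotaline (10 or 50 mg/kg at every time, 300 mg/kg at 6 h only and a group labelled 30 mg/kg at 24 h only), N-nitrosomorpholine (10, 50 or 300 mg/kg), thioacetamide (15, 50 or 150 mg/kg) or the oil alone. By intraperitoneal injection in phosphate-buffered saline (PBS), 138 rats received galactosamine (25, 100 or 400 mg/kg), diquat dibromide (5, 10, 20 or 25 mg/kg) or PBS alone. Diquat groups held 6 rats and the others 4, except the thioacetamide vehicle at 6 h and 1,2-dichlorobenzene 1500 mg/kg at 48 h, which held 2 each. "Highest dose" below means the highest dose given at all 3 times, which for monocrotaline is 50 mg/kg.

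The labels give each rat a necrosis score, which was 0 in 261 rats, 1 in 84, 2 in 30, 3 in 14 and 4 in 29, and name 39 hybridisation days. In 36 of the 74 comparisons the dosed and vehicle arrays shared no hybridisation day, and in 18 all arrays were hybridised on 1 day. The 36 include every thioacetamide comparison, and 1,4-dichlorobenzene 1500 mg/kg and diquat 25 mg/kg at 6, 24 and 48 h. They also include bromobenzene 250 mg/kg at 6 and 48 h and galactosamine 400 mg/kg at 24 and 48 h. Below this is repeated for some results only. Arrays of 1 group correlated at 0.84 or more, with a median of 0.965. The 9 hepatocyte markers measured had median vehicle signals between 4959 and 60993, and the 5 neutrophil markers between 11.5 and 170, 1 of them under a signal of 16. The median share of probe sets under 16 was 14.8% per array, and on 8 arrays at most 8% did, among them rats 1 and 4 of the 1,4-dichlorobenzene vehicle at 6 h, so results that rest on them are given with and without them.

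ATF4 with a C/EBP partner binds a composite element, and the stretch upstream of each gene was searched for it to show what the 8 genes share in sequence. The search used the letters TGATGNAAN, N being any base, on either strand of the RefSeq promoter windows of GRCr8 (250 bases before to 50 after each start, 9 windows for the 8 genes, Gdf15 having 2). The letters stood in 3.97% of all the promoter windows and in those of Fgf21, Chac1 and Trib3. The stricter form TGATGCAA stood in 0.795% of windows and in those of Fgf21 and Chac1. These 3 stretches, written in the direction of the gene with the match in capitals, lie at chr1:105221486-105221546 (minus strand), chr3:126795937-126795997 (plus strand) and chr3:161275521-161275581 (minus strand).
Fgf21: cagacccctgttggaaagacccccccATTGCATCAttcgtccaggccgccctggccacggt
Chac1: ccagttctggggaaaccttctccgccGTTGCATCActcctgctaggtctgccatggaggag
Trib3: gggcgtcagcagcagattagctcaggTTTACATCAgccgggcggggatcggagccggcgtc
The match began 144 bases before the start in Fgf21, 168 in Chac1 and 22 in Trib3. The windows of Atf4, Ddit3, Asns, Sesn2 and Gdf15 did not hold these letters. A match is a description of the letters and was not tested for binding.

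Values below are array signals, which the authors scaled to a trimmed mean of 500 on every array. Changes are differences in log2(signal + 16), dosed minus vehicle, with their standard error (SE), from limma fitted over all 14217 genes. A gene is said to have risen or fallen where its Benjamini-Hochberg adjusted p over all genes was under 0.05. A log2 change understates the fold of genes with signals near 16. Across the 8 genes and 74 dosed groups, 592 values in all, 183 rose and 10 fell, while over all genes and groups 8.76% of values rose and 6.9% fell. Trib3, a pseudokinase that binds AKT and damps ATF4 itself, rose in 33 groups. Ddit3, which encodes the transcription factor CHOP, rose in 29 and Gdf15 in 26. Atf4 rose in 24 groups, Asns in 22, Sesn2 in 19, Fgf21 in 16 and Chac1 in 14. The share of all genes that rose in as many groups was 0.689% for Trib3, 2.03% for Ddit3, 3.73% for Gdf15, 5.29% for Atf4, 7.05% for Asns, 10.6% for Sesn2, 15.3% for Fgf21 and 18.7% for Chac1. Of the 10 falls, 4 were of Atf4, 3 of Sesn2 and 3 of Fgf21. In the 18 comparisons hybridised on 1 day, 47 of 144 values rose and 0 fell. In the 36 that shared no day, 96 of 288 rose and 8 fell. These sets differ in dose, with 4 of the 18 and 14 of the 36 at the highest dose. There 20 of 32 and 60 of 112 values rose. The share of all genes was not counted by day sharing, so the sets are not compared. With the day as a fixed block, over all 74 comparisons, 480 of the 592 values could be estimated, and 86 of the 145 called ones among them kept their call. Where dosed and vehicle arrays share no day, the comparison with the day held fixed runs through other groups, and day and dose cannot be told apart within the group.

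**Figure D1:**
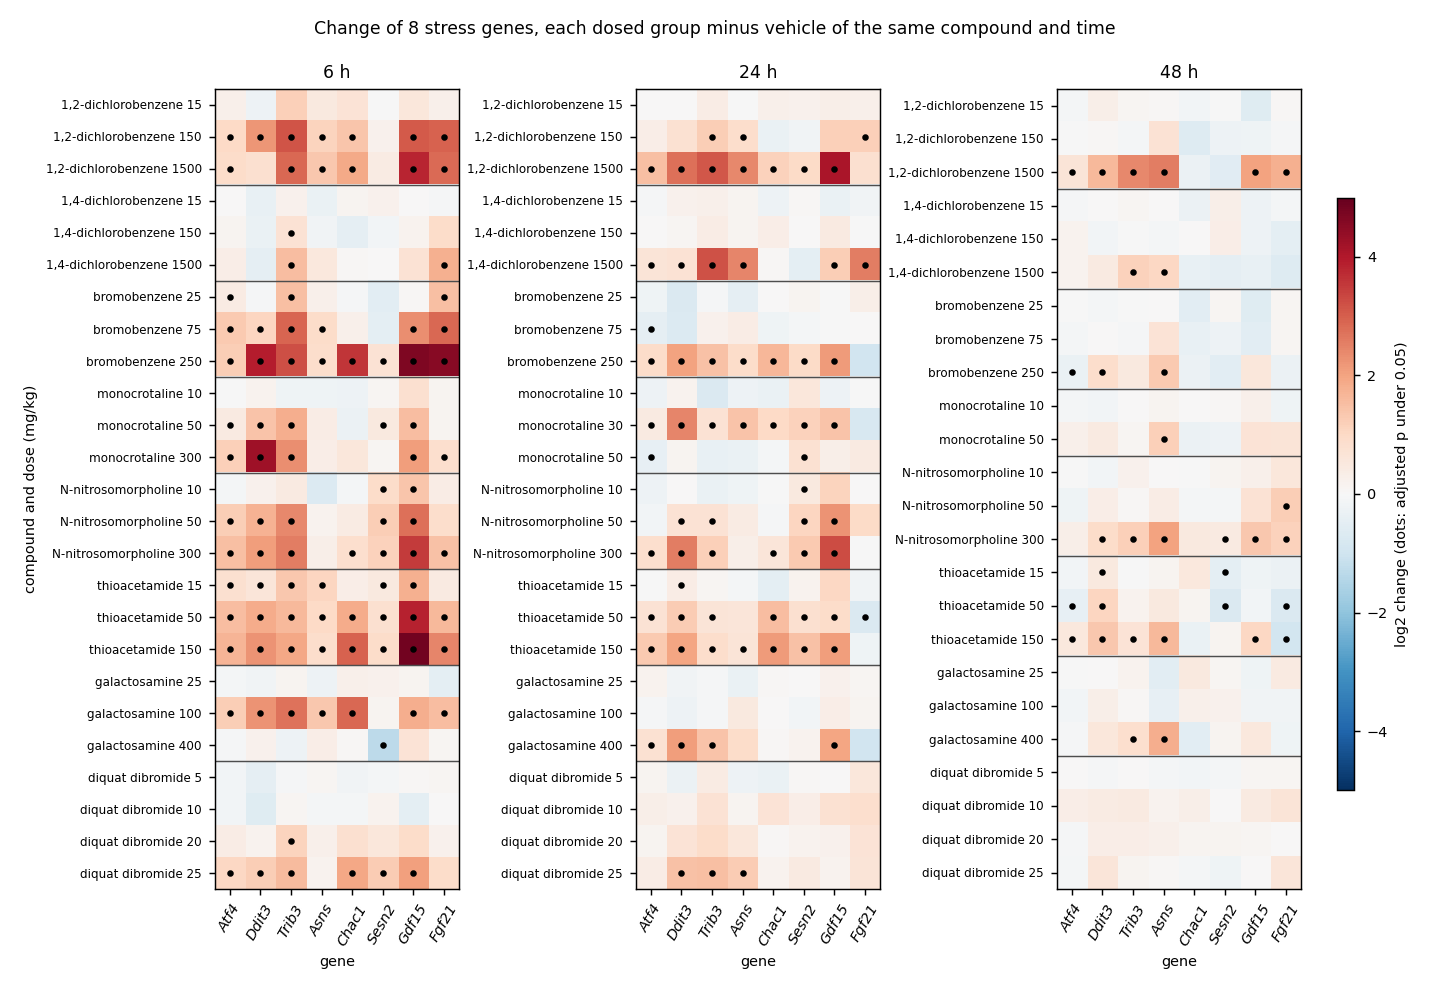
Colour gives the log2 change of each of the 8 genes (columns) in each dosed group (rows, compound and dose in mg/kg) against vehicle of the same compound and time, in 1 panel per time; dots mark adjusted p under 0.05. Of 592 squares 193 carry a dot, 183 of them rises, and the row for bromobenzene 250 mg/kg at 6 h is dotted in all 8 columns.

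Rises were most frequent at 6 h over all doses. Of 25 dosed groups at 6 h, 18 showed a rise of at least 1 of the 8 genes and 13 a rise of 4 or more, against 14 and 9 of 25 groups at 24 h and 10 and 3 of 24 groups at 48 h. Over all genes the share that rose was 6.59% at 6 h, 11% at 24 h and 8.64% at 48 h. All 8 rose in 3 groups, each at 6 h: bromobenzene 250 mg/kg (7.35% of all genes rose), thioacetamide 50 mg/kg (10.7%) and thioacetamide 150 mg/kg (9.43%). In 7 further groups 7 of the 8 rose. At 6 h these were 1,2-dichlorobenzene 150 mg/kg (6.72%), N-nitrosomorpholine 300 mg/kg (18.2%) and galactosamine 100 mg/kg (4.7%). At 24 h they were 1,2-dichlorobenzene 1500 mg/kg (22.3%), bromobenzene 250 mg/kg (23.5%), monocrotaline labelled 30 mg/kg (25.8%) and thioacetamide 150 mg/kg (30.5%). None of the 8 rose in 32 of the 74 groups. At the highest dose alone 42 of 64 values rose at 6 h, 41 at 24 h and 24 at 48 h. In these groups the share of all genes that rose ran from 1.08% to 18.2% at 6 h. It ran from 6.07% to 30.5% at 24 h and from 5.11% to 36.1% at 48 h.

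The counts by dose were read against the share of all genes that rose in the same group. After 1,2-dichlorobenzene at 6 h, 0, 7 and 6 of the 8 genes rose at 15, 150 and 1500 mg/kg, where 0.0281%, 6.72% and 5.9% of all genes did. After 1,2-dichlorobenzene at 24 h, 0, 3 and 7 of the 8 genes rose at 15, 150 and 1500 mg/kg, where 0%, 14% and 22.3% of all genes did. After 1,2-dichlorobenzene at 48 h, 0, 0 and 6 of the 8 genes rose at 15, 150 and 1500 mg/kg, where 0%, 1.32% and 18.6% of all genes did. No gene rose at 15 mg/kg at any time. After 1,4-dichlorobenzene at 6 h, 0, 1 and 2 of the 8 genes rose at 15, 150 and 1500 mg/kg, where 0.506%, 1.32% and 4.45% of all genes did. After 1,4-dichlorobenzene at 24 h, 0, 0 and 6 of the 8 genes rose at 15, 150 and 1500 mg/kg, where 0%, 0.0563% and 18.6% of all genes did. After 1,4-dichlorobenzene at 48 h, 0, 0 and 2 of the 8 genes rose at 15, 150 and 1500 mg/kg, where 0%, 0.0563% and 10.6% of all genes did. More than 1 gene rose after 1500 mg/kg alone. After bromobenzene at 6 h, 3, 6 and 8 of the 8 genes rose at 25, 75 and 250 mg/kg, where 2.67%, 8.09% and 7.35% of all genes did. After bromobenzene at 24 h, 0, 0 and 7 of the 8 genes rose at 25, 75 and 250 mg/kg, where 2.79%, 10.4% and 23.5% of all genes did. After bromobenzene at 48 h, 0, 0 and 2 of the 8 genes rose at 25, 75 and 250 mg/kg, where 0.0141%, 0.872% and 22.1% of all genes did. The lower doses raised genes at 6 h alone.

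After monocrotaline at 6 h, 0, 5 and 5 of the 8 genes rose at 10, 50 and 300 mg/kg, where 1.77%, 17.5% and 18.3% of all genes did. After monocrotaline at 24 h, 0, 7 and 1 of the 8 genes rose at 10, the labelled 30 and 50 mg/kg, where 0.0563%, 25.8% and 6.07% of all genes did. After monocrotaline at 48 h, 0 and 1 of the 8 genes rose at 10 and 50 mg/kg, where 0.0211% and 5.11% of all genes did. No gene rose after 10 mg/kg. After N-nitrosomorpholine at 6 h, 2, 5 and 7 of the 8 genes rose at 10, 50 and 300 mg/kg, where 4.94%, 16.9% and 18.2% of all genes did. After N-nitrosomorpholine at 24 h, 1, 4 and 6 of the 8 genes rose at 10, 50 and 300 mg/kg, where 1.33%, 19.7% and 27.2% of all genes did. After N-nitrosomorpholine at 48 h, 0, 1 and 6 of the 8 genes rose at 10, 50 and 300 mg/kg, where 0.345%, 10.4% and 30.1% of all genes did. The count was higher at each higher dose at every time. After thioacetamide at 6 h, 6, 8 and 8 of the 8 genes rose at 15, 50 and 150 mg/kg, where 8.32%, 10.7% and 9.43% of all genes did. After thioacetamide at 24 h, 1, 6 and 7 of the 8 genes rose at 15, 50 and 150 mg/kg, where 9.17%, 28.3% and 30.5% of all genes did. After thioacetamide at 48 h, 1, 1 and 5 of the 8 genes rose at 15, 50 and 150 mg/kg, where 5.53%, 30.4% and 36.1% of all genes did. The lowest dose raised 6 of the genes at 6 h.

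After galactosamine at 6 h, 0, 7 and 0 of the 8 genes rose at 25, 100 and 400 mg/kg, where 0%, 4.7% and 1.08% of all genes did. After galactosamine at 24 h, 0, 0 and 4 of the 8 genes rose at 25, 100 and 400 mg/kg, where 0%, 0.267% and 21.4% of all genes did. After galactosamine at 48 h, 0, 0 and 2 of the 8 genes rose at 25, 100 and 400 mg/kg, where 0%, 0.0352% and 30.2% of all genes did. At 6 h the count was highest at the middle dose. After diquat dibromide at 6 h, 0, 0, 1 and 6 of the 8 genes rose at 5, 10, 20 and 25 mg/kg, where 0%, 0%, 5.54% and 10.3% of all genes did. After diquat dibromide at 24 h, 0, 0, 0 and 3 of the 8 genes rose at 5, 10, 20 and 25 mg/kg, where 0.00703%, 2.03%, 0.352% and 12% of all genes did. After diquat dibromide at 48 h, 0, 0, 0 and 0 of the 8 genes rose at 5, 10, 20 and 25 mg/kg, where 0%, 0.0211%, 0.183% and 5.5% of all genes did. All rises but 1 were after 25 mg/kg, and that 1, of Trib3 after 20 mg/kg, missed the threshold without the 8 arrays with the fewest dim probe sets (1.14 ± 0.41, adjusted p = 0.058).

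Atf4 messenger varied least between rats of 1 group, with a pooled standard deviation of 0.224 on the log2 scale in dosed rats and 0.172 in vehicle rats. After thioacetamide 150 mg/kg at 6 h its signal was 15813, 15484, 14671 and 17022, against 4636 and 5138 in the 2 vehicle rats, a change of 1.68 ± 0.11 (adjusted p = 2.5e-15). No dosed rat came near the vehicle rats, and this was the largest rise of Atf4 in the series. The dosed and vehicle arrays of this comparison shared no hybridisation day. N-nitrosomorpholine 300 mg/kg at 6 h gave 14447, 13994, 14698 and 8257, against 3973, 4505, 4913 and 4169.9 in vehicle rats (1.51 ± 0.14). Its rat 4 was the lowest of the dosed rats here and also in Ddit3, Trib3, Chac1, Gdf15 and Fgf21 of this group. After 1,2-dichlorobenzene 1500 mg/kg at 24 h the signals were 18216, 17514, 16128 and 15111, against 6592, 5684, 5598 and 5662 in vehicle rats (1.51 ± 0.13). At 48 h Atf4 rose only after 1,2-dichlorobenzene 1500 mg/kg (0.66 ± 0.16, 2 dosed rats) and thioacetamide 150 mg/kg (0.54 ± 0.09). It fell after bromobenzene 75 mg/kg at 24 h (-0.43 ± 0.11) and 250 mg/kg at 48 h (-0.31 ± 0.11), monocrotaline 50 mg/kg at 24 h (-0.41 ± 0.11) and thioacetamide 50 mg/kg at 48 h (-0.41 ± 0.09). Among all vehicle groups the bromobenzene vehicle at 24 h had the highest median of Atf4, 8693, and of Ddit3 and Fgf21, and the fall after 75 mg/kg was measured against it.

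Ddit3 rose with every compound and fell in none of the 74 groups. CHOP, its product, pairs with C/EBP factors and is known for its part in the death of stressed cells. After monocrotaline 300 mg/kg at 6 h the Ddit3 signals were 6214, 5048, 7149 and 4375, against 254, 266, 304 and 294 in vehicle rats, a change of 4.25 ± 0.19 or 19-fold (adjusted p = 3.6e-21). At 50 mg/kg and 6 h they were 659, 803, 556 and 1290 (1.44 ± 0.19). With the hybridisation day as a fixed block the 300 mg/kg value could not be estimated. Bromobenzene 250 mg/kg at 6 h gave 3357, 6736, 6841 and 8095, against 381, 369.9, 363 and 399.6 in vehicle rats (3.92 ± 0.27). Every dosed rat was far above its controls in both groups. Neither group shared a hybridisation day with its vehicle rats. The 4 rats given 1,2-dichlorobenzene 150 mg/kg at 6 h did not agree: Ddit3 was 5874, 3616, 401 and 5919, against 494, 578, 688 and 520.0 in vehicle rats (2.21 ± 0.45). Rat 3, the only 1 of the 4 scored without necrosis, lay below every vehicle rat. Galactosamine 400 mg/kg at 24 h also held 1 rat at the vehicle level, with signals of 3198, 389, 2152 and 2277, against 422, 318, 416 and 306 in vehicle rats (2.08 ± 0.33). After thioacetamide Ddit3 was higher than in vehicle rats at every dose and time, by 0.37 at 15 mg/kg and 24 h in the smallest case. None of these thioacetamide groups shared a hybridisation day with its vehicle rats.

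Trib3 rose in more groups than the other 7 genes. At the highest dose it rose with 7 of 8 compounds at 6 h, 7 at 24 h and 5 at 48 h. The shares of all genes that rose in these groups are given above. Trib3 rose at the lowest bromobenzene dose, where at 6 h its signals were 1498, 857, 891 and 1382, against 405, 416, 361 and 375 in vehicle rats (1.49 ± 0.22). Atf4 (0.40 ± 0.11) and Fgf21 (1.50 ± 0.40) rose there as well, and 2.67% of all genes did. At 75 mg/kg the change was 2.89 ± 0.22 and at 250 mg/kg 3.23 ± 0.22, its largest. At 250 mg/kg the rats measured 2568, 3901, 4565 and 4400.3, and they shared no hybridisation day with the vehicle rats. After 1,4-dichlorobenzene 1500 mg/kg at 24 h Trib3 was 4913, 2356, 3417 and 2074, against 456, 365, 221 and 283 in vehicle rats (3.17 ± 0.21). It was also the gene that rose at 1,4-dichlorobenzene 150 mg/kg and 6 h (0.74 ± 0.21, adjusted p = 0.044), where 1.32% of all genes rose, a call that was lost without the 8 arrays with the fewest dim probe sets (0.85 ± 0.26, adjusted p = 0.15). Its 2 other probe sets followed the one used at r = 0.945 and 0.923 over all arrays.

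Asns, asparagine synthetase, makes asparagine from aspartate and glutamine and is a much used marker of ATF4 activity. At the highest dose it rose with 3 of 8 compounds at 6 h, 5 at 24 h and 7 at 48 h. The other 7 genes rose with 0 to 5 at 48 h. Of all genes, 1.08% to 18.2% rose in these groups at 6 h. At 24 h 6.07% to 30.5% did and at 48 h 5.11% to 36.1%. After N-nitrosomorpholine 300 mg/kg the change of Asns was 0.31 ± 0.34 at 6 h, 0.31 ± 0.34 at 24 h and 2.00 ± 0.34 at 48 h. The 48 h rats measured 645, 556, 609.8 and 788, against 185, 182, 156 and 93.8 in vehicle rats, with no overlap. Galactosamine 400 mg/kg at 48 h gave 428, 930.1, 360.1 and 379.8, against 166, 126, 99.7 and 127 (1.80 ± 0.43). The largest rise was after 1,2-dichlorobenzene 1500 mg/kg at 48 h, 794 and 696 in the 2 dosed rats, against 116, 96.4, 107 and 132 in vehicle rats (2.57 ± 0.38). At 24 h 1,4-dichlorobenzene 1500 mg/kg raised it by 2.45 ± 0.27, with 1160.3, 1168, 1232 and 873, against 172, 234, 185 and 167 in vehicle rats. Diquat did so at 24 h alone: after 25 mg/kg the lowest, median and highest signals were 252, 619 and 739, against 164, 177 and 274 in vehicle rats (1.28 ± 0.36). The difference between the changes at 48 h and at 6 h, a test added after the data were seen, was 1.69 ± 0.48 for N-nitrosomorpholine (adjusted p = 0.0035) and 1.47 ± 0.60 for galactosamine (0.048; 1.64 ± 0.64 and 0.036 without the 8 arrays with the fewest dim probe sets), and missed the threshold for the other 6 compounds. Hepatocyte markers were lower at 48 h in several of these groups, with 6 of 9 falling after N-nitrosomorpholine (19.3% of all genes fell) and 9 of 9 after galactosamine (16.2%), and their part in the result was not tested.

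Chac1, an enzyme that breaks down glutathione, had the fewest rises, and 0 of them at 48 h. After bromobenzene 250 mg/kg at 6 h its signals were 1469, 4423, 4609.8 and 4618, against 283, 452, 409 and 106 in vehicle rats (3.56 ± 0.41). Thioacetamide 150 mg/kg at 6 h gave 2162, 1903, 2334 and 1876, against 310.4 and 202 in the 2 vehicle rats (2.96 ± 0.38). Neither of these 2 dosed groups shared a hybridisation day with its vehicle rats. At 24 h the thioacetamide rats measured 2277, 2291, 706 and 2691, against 347, 370, 604 and 310.0 (2.13 ± 0.31), with rat 3 close to the highest vehicle rat. At 48 h the same dose gave 164, 182, 189.8 and 185, against 154, 154, 366 and 316 in vehicle rats. After diquat 25 mg/kg at 6 h the lowest, median and highest signals were 222, 2099 and 3926, against 179.6, 324 and 473 in vehicle rats (1.93 ± 0.40), so that some dosed rats stayed among the vehicle values. Neither 1,4-dichlorobenzene nor monocrotaline at 10, 50 or 300 mg/kg gave a rise of Chac1, and monocrotaline labelled 30 mg/kg did (0.98 ± 0.29). The smaller 24 h rises depended on single arrays: that after 1,2-dichlorobenzene 1500 mg/kg (1.14 ± 0.43) lost its call without rat 2 or 3 of the dosed group or rat 1 or 2 of the vehicle group (adjusted p up to 0.085), and that after N-nitrosomorpholine 300 mg/kg (0.61 ± 0.23) without dosed rat 1, 3 or 4 or vehicle rat 2, 3 or 4 (up to 0.12).

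Sesn2, sestrin 2, senses leucine and restrains the growth kinase mTORC1. It stood apart by its rises after low N-nitrosomorpholine doses. At 10 mg/kg and 6 h its signals were 1646, 2107, 1721 and 1829.6, against 1041, 1076, 883 and 871 in vehicle rats (0.90 ± 0.13, adjusted p = 2.7e-06). Of the other 7 genes Gdf15 alone rose there, with 367, 229, 251 and 332, against 46.4, 77.3, 183 and 143 (1.39 ± 0.38), while 4.94% of all genes rose. Its change was larger at 50 mg/kg (1.24 ± 0.13) and 300 mg/kg (1.14 ± 0.13). After monocrotaline 50 mg/kg at 24 h it was the gene of the 8 that rose (0.74 ± 0.16), with 1458, 1466, 1433 and 1607, against 1241, 1026, 785 and 608 in vehicle rats, where 6.07% of all genes rose and 5.18% fell. Its largest rise was after thioacetamide 150 mg/kg at 24 h, 2202, 2071, 2956 and 2408, against 931, 717, 1139 and 686 (1.47 ± 0.13). Among 11 measured p53 targets from a list, 9 rose and 0 fell at 6 h after N-nitrosomorpholine 300 mg/kg (18.2% of all genes rose) and after monocrotaline 50 mg/kg (17.5%). At 24 h 9 rose and 1 fell after N-nitrosomorpholine, with Ccng1 (3.59 ± 0.15), Cdkn1a (4.20 ± 0.22) and Mdm2 (3.08 ± 0.17) leading (27.2% of all genes rose), and 8 rose and 0 fell after monocrotaline 50 mg/kg (6.07%). At 24 h 9 also rose after thioacetamide 150 mg/kg (30.5% of all genes rose) and 8 after 1,2-dichlorobenzene 1500 mg/kg (22.3%). The part of p53 in the level of Sesn2 was not tested. The 1,4-dichlorobenzene rats gave no rise of Sesn2 at any dose or time. A second, dimmer Sesn2 probe set followed the one used at r = 0.48 over all arrays, and on the mean of both the change after bromobenzene 250 mg/kg at 24 h was -0.088 in place of 0.97.

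Gdf15, a hormone that acts on the hindbrain receptor GFRAL and reduces food intake, had the largest rise of any of the 8 genes. After thioacetamide 150 mg/kg at 6 h its signals were 2378, 2231, 3421 and 2648, against 99 and 62.1 in the 2 vehicle rats, a change of 4.80 ± 0.45 or 28-fold (adjusted p = 3.5e-11). It rose at every thioacetamide dose at 6 h, by 1.79 ± 0.45 at 15 mg/kg and 3.84 ± 0.45 at 50 mg/kg. After bromobenzene 250 mg/kg at 6 h the rats measured 2074, 3870.5, 6026 and 6792, against 122, 221, 198 and 98.7 in vehicle rats (4.67 ± 0.47). Neither these rats nor the thioacetamide rats at 6 h shared a hybridisation day with their vehicle rats. N-nitrosomorpholine 300 mg/kg raised Gdf15 at all 3 times, by 3.51 ± 0.38 at 6 h, 3.27 ± 0.38 at 24 h and 1.36 ± 0.38 at 48 h. At 24 h those rats measured 841, 823, 1119.5 and 973, against 112, 91.8, 36.9 and 112 in vehicle rats, well apart. Diquat 25 mg/kg raised it at 6 h (2.05 ± 0.41), with a lowest, median and highest signal of 34.8, 671 and 1024, against 23.4, 80.2 and 223 in vehicle rats. Gdf15 also varied most between rats of 1 group, with a pooled standard deviation of 0.649 in dosed and 0.592 in vehicle rats, and 2 of the arrays read it under 16.

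Fgf21, a hormone of the fasted liver that acts on fat and brain through FGF receptors with the co-receptor beta-Klotho, rose early and returned by 24 h after bromobenzene and thioacetamide. After bromobenzene at 6 h it rose by 1.50 ± 0.40 at 25 mg/kg, 2.87 ± 0.40 at 75 mg/kg and 4.57 ± 0.40 at 250 mg/kg (adjusted p = 2.8e-12 at 250 mg/kg). The 250 mg/kg rats measured 2097, 8395, 13188 and 9057, against 281, 306, 237 and 261 in vehicle rats, 23.7-fold. They shared no hybridisation day with these vehicle rats. At 24 h the 250 mg/kg rats measured 208, 264, 157 and 397, against 259, 428, 675 and 723 (-0.95 ± 0.40, adjusted p = 0.054). The dosed rats thus lay below or within the range of their controls a day after dosing. This vehicle group had the highest Fgf21 median of all vehicle groups, 552. Thioacetamide 150 mg/kg gave 2.43 ± 0.32 at 6 h, -0.23 ± 0.26 at 24 h and -0.93 ± 0.26 at 48 h, when all 4 dosed rats (131, 153, 137 and 107) lay below all 4 vehicle rats (201, 378, 202 and 317). Thioacetamide 50 mg/kg lowered Fgf21 at 24 h (-0.73 ± 0.26) and at 48 h (-0.72 ± 0.26), with overlap between rats. After 1,4-dichlorobenzene 1500 mg/kg the rise was at 24 h as well as 6 h: 1676, 4304, 1913 and 1117 at 24 h, against 274, 203, 459 and 421 in vehicle rats (2.56 ± 0.45). The 6 h rise (1.77 ± 0.45) missed the threshold without the 8 arrays with the fewest dim probe sets (1.80 ± 0.56, adjusted p = 0.06). Diquat raised Fgf21 at no dose or time. The rats had been fasted, and vehicle Fgf21 ranged from 59.1 to 723 with a median of 306 at 24 h.

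**Figure D2:**
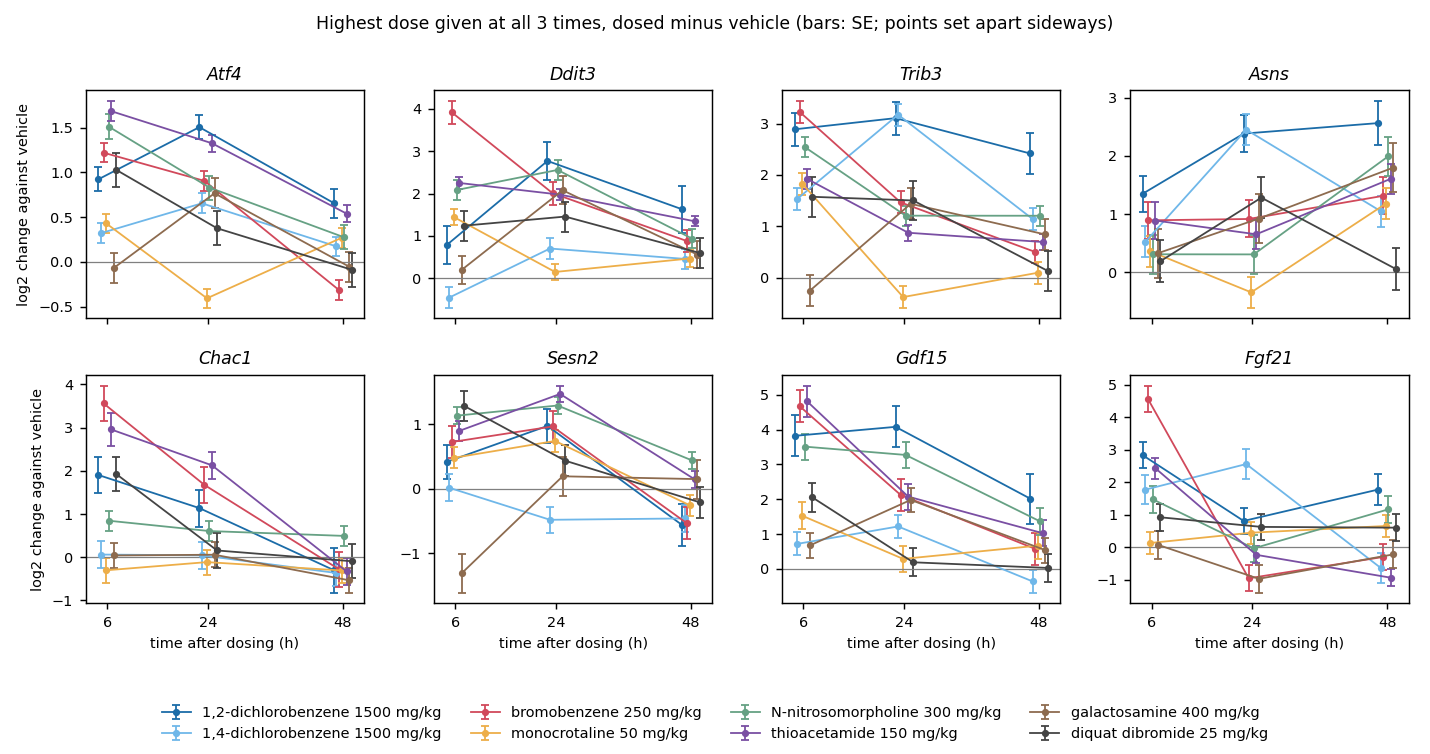
Each panel is 1 gene, with time after dosing in hours on the x axis and the log2 change against vehicle on the y axis for the highest dose of each compound given at all 3 times; bars are SE. Fgf21 after bromobenzene stands at 4.57 at 6 h and -0.95 at 24 h, and Asns lies above 1 at 48 h with all compounds but diquat.

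The change at 24 h was compared with that at 6 h directly, at the highest dose of each compound. Of 64 such differences 10 were higher and 16 lower at 24 h, where over all genes 15.6% were higher and 11.1% lower. Bromobenzene had 5 lower values, led by Fgf21 (-5.52 ± 0.56) and Gdf15 (-2.55 ± 0.66), followed by Ddit3, Chac1 and Trib3. After thioacetamide the later value was lower in Gdf15 (-2.73 ± 0.59), Fgf21 (-2.66 ± 0.41) and Trib3 (-1.04 ± 0.25) and higher in Sesn2 (0.57 ± 0.20). After diquat the later value was lower in Gdf15 (-1.86 ± 0.57) and Chac1 (-1.77 ± 0.56), and neither was called without the 8 arrays with the fewest dim probe sets (-1.43 ± 0.59 and -1.53 ± 0.57). After 1,4-dichlorobenzene 3 genes differed, Asns (1.93 ± 0.38), Trib3 (1.64 ± 0.30) and Ddit3 (1.16 ± 0.34) all higher at 24 h. 1,2-dichlorobenzene split them, with Ddit3 (1.99 ± 0.63) and Atf4 (0.58 ± 0.19) higher and Fgf21 (-2.02 ± 0.56) lower. With the hybridisation day as a fixed block only 32 of the 64 differences could be estimated, of which 4 were higher and 1 lower.

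**Figure D3:**
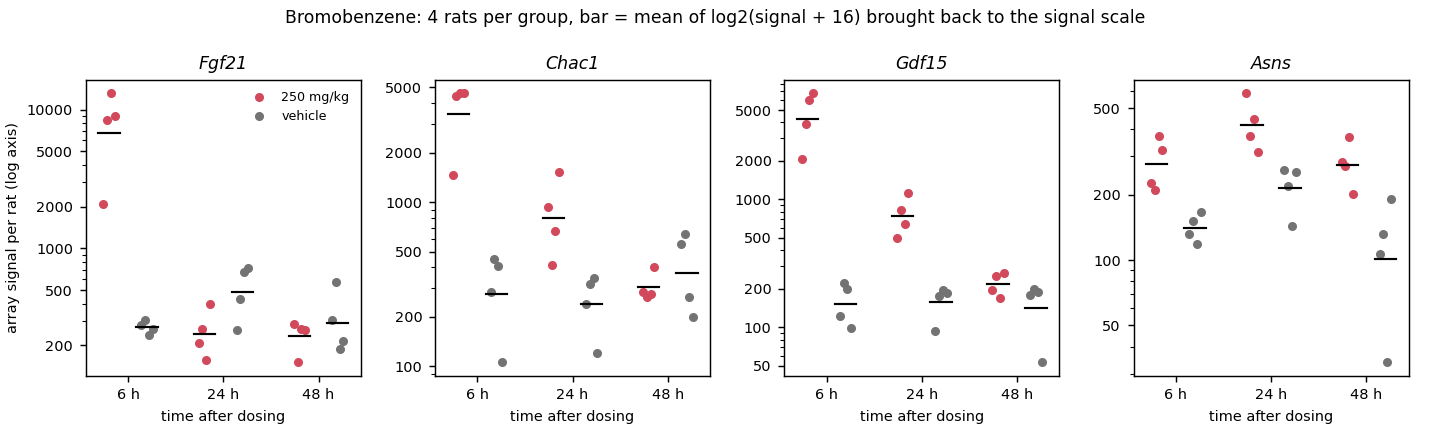
Points are single rats given bromobenzene 250 mg/kg (red) or vehicle (grey) at 6, 24 and 48 h, with the array signal on a log axis, and bars are group means taken on the log2(signal + 16) scale. At 6 h all 4 dosed rats lie above all 4 vehicle rats in Fgf21, Chac1, Gdf15 and Asns, and at 48 h that holds for Asns alone.

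Neutrophil markers were read beside the early peak after bromobenzene. The summed signal of the 5 markers had a lowest, median and highest value of 309, 397 and 695 in the 250 mg/kg rats at 6 h, against 296, 332 and 401 in vehicle rats, and 0 of 5 rose (7.35% of all genes did). At 24 h it was 30900, 33785 and 50139, against 393, 464 and 525, and 5 of 5 rose (23.5% of all genes did), at the time when Fgf21 had returned. At 6 h 4 of 5 neutrophil markers rose after thioacetamide 150 mg/kg (9.43% of all genes did). After galactosamine 100 mg/kg (4.7%) and monocrotaline 300 mg/kg (18.3%) 3 rose. After diquat 25 mg/kg (10.3%) and N-nitrosomorpholine 300 mg/kg (18.2%) 2 of these markers rose. Their part in those results was not tested. Whether more cells of a type or more RNA per cell gave a higher signal cannot be told apart in whole tissue.

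Galactosamine at 6 h was out of dose order in 7 of the 8 genes. The labels were used as given, and whether the labelled doses are those received was not tested. In vehicle rats Trib3 was 278, 262, 286 and 301, after 25 mg/kg 316, 334, 301 and 281, after 100 mg/kg 1779, 2239, 2614 and 1366 and after 400 mg/kg 337, 153, 163 and 352. Atf4 was 4538, 4839, 4341 and 4768 in vehicle rats, 4379, 4908, 4245 and 3959 after 25 mg/kg, 10875, 11775, 10950 and 9664 after 100 mg/kg and 3704, 4612, 3992 and 5502 after 400 mg/kg. The 100 mg/kg rats stood above all others in both genes. After 400 mg/kg 2 rats lay above and 2 below every vehicle rat in Trib3, and in Atf4 1 lay above, 1 within and 2 below the vehicle range. A test of 100 minus 400 mg/kg, added after the data were seen, gave 2.97 ± 0.30 for Trib3, 2.83 ± 0.29 for Chac1, 2.04 ± 0.33 for Ddit3, 1.47 ± 0.43 for Fgf21, 1.45 ± 0.30 for Sesn2, 1.29 ± 0.17 for Atf4 and 1.16 ± 0.35 for Gdf15, all called, where 4.94% of all genes were higher. Asns differed by 1.01 ± 0.43 (adjusted p = 0.146). Rat 1 of the 400 mg/kg group was 1 of the 8 arrays with the fewest dim probe sets, and without those arrays Gdf15 lost its call (1.04 ± 0.39, adjusted p = 0.092) while the other 6 kept theirs. At 24 h the same test gave lower values at 100 mg/kg for Ddit3 (-2.32 ± 0.33), Gdf15 (-1.65 ± 0.35), Trib3 (-1.49 ± 0.30) and Atf4 (-0.82 ± 0.17), and a higher one for Fgf21 (1.10 ± 0.43, adjusted p = 0.046), where 17.4% of all genes were lower and 14.3% higher. The 100 mg/kg rats at 6 h shared no hybridisation day with their vehicle rats, and with the day as a fixed block Trib3 (3.70 ± 0.71) and Chac1 (2.98 ± 0.87) kept their calls out of 7. Sesn2 was the gene that fell after 400 mg/kg at 6 h, with 1003, 242, 177 and 940.2, against 1025, 1131, 1247 and 1200.3 in vehicle rats (-1.31 ± 0.30, where 4.46% of all genes fell). Rats 2 and 3 were far below the others and were also the 2 lowest of this group in Trib3. The fall of Sesn2 lost its call when replicate 2, or replicate 3, was left out of every group, vehicle included.

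**Figure D4:**
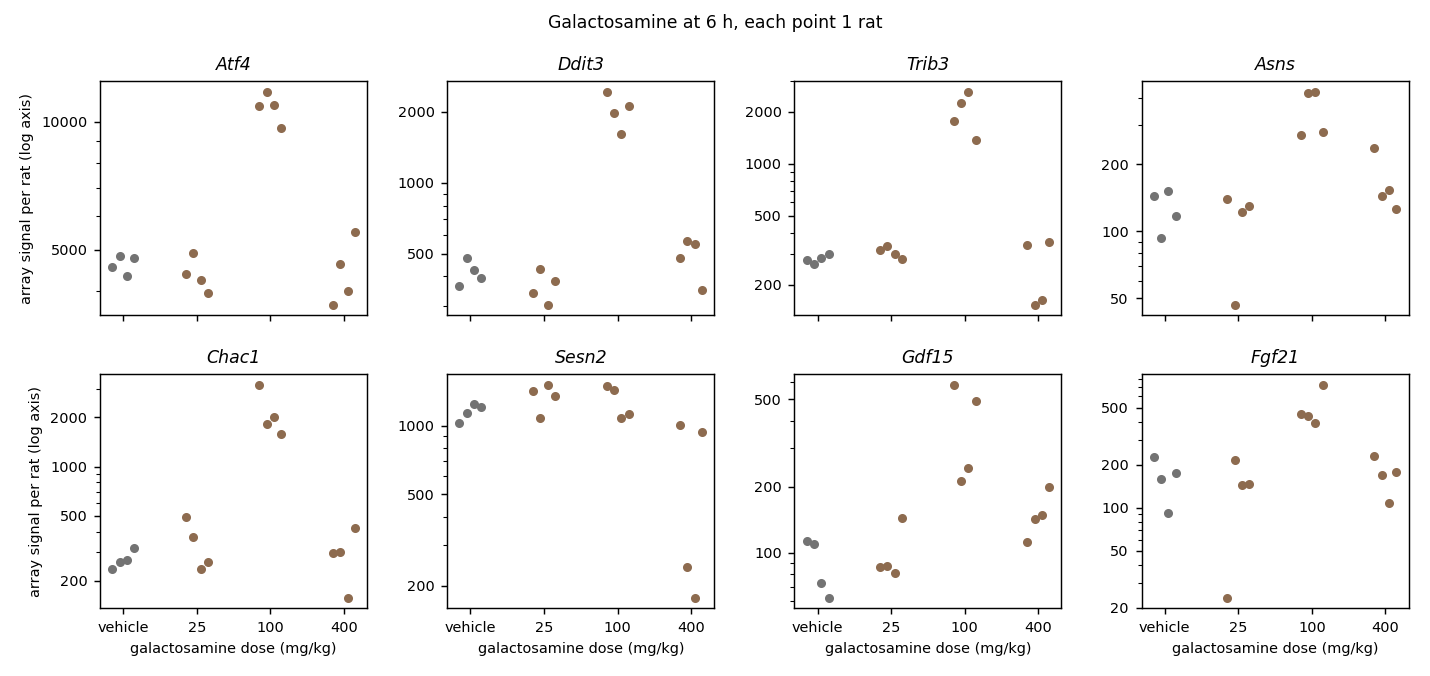
Each panel is 1 gene and each point 1 rat at 6 h, with galactosamine dose in mg/kg (vehicle at the left) on the x axis and the array signal on a log axis. The rats given 100 mg/kg lie above all rats of the other 3 groups in Atf4, Ddit3, Trib3, Asns, Chac1, Gdf15 and Fgf21, and not in Sesn2.

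Monocrotaline at 24 h was also out of dose order: the group labelled 30 mg/kg had 7 rises and the 50 mg/kg group 1. After the labelled 30 mg/kg Ddit3 was 1454, 1252, 1476 and 2403 and after 50 mg/kg 399, 297, 289 and 289, against 326, 285, 205 and 334 in vehicle rats. Asns was 437, 718, 451 and 411 after the labelled 30 mg/kg and 148, 145, 93.7 and 152 after 50 mg/kg, against 219.8, 159, 144 and 175 in vehicle rats. A test of 30 minus 50 mg/kg, also added later, gave 2.28 ± 0.19 for Ddit3, 1.77 ± 0.27 for Asns, 1.13 ± 0.38 for Gdf15, 1.10 ± 0.21 for Trib3, 1.09 ± 0.29 for Chac1, 0.87 ± 0.11 for Atf4 and 0.42 ± 0.16 for Sesn2, while Fgf21 was lower (-1.24 ± 0.34), against 23.7% of all genes higher and 17.1% lower. The neutrophil sum had a median of 37425 in the labelled 30 mg/kg rats and 304 in the 50 mg/kg rats, against 285 in vehicle rats. The labelled dose was used as given, and whether it is the dose received was not tested.

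The dichlorobenzene isomers differ only in where the second chlorine sits on the ring, next to the first in 1,2-dichlorobenzene and opposite to it in 1,4-dichlorobenzene. Doses and times matched (3 of each), so 9 pairs of groups and 72 values were compared, each as the change with the 1,2-isomer minus the change with the 1,4-isomer. Of these 19 were higher and 1 lower, where over all genes and pairs 4.03% were higher and 4.04% lower. With p-values adjusted over the 9 pairs of each gene in place of all genes, 22 values were called. At 150 mg/kg and 6 h 7 of the 8 genes were higher with the 1,2-isomer (4.28% of all genes): Gdf15 by 2.89 ± 0.68, Ddit3 by 2.56 ± 0.52, Trib3 by 2.40 ± 0.40, Fgf21 by 2.00 ± 0.62, Chac1 by 1.83 ± 0.54, Asns by 1.31 ± 0.41 and Atf4 by 0.86 ± 0.18. Sesn2 differed by 0.35 ± 0.34, with a 95% interval of -0.33 to 1.03. Fgf21 there measured 3781, 4713, 1104 and 5161 in 1,2-dichlorobenzene rats, against 533, 270.0, 419.6 and 433 in their vehicle rats. With 1,4-dichlorobenzene at the same dose and time it measured 437, 181, 339 and 735, against 236, 233, 148 and 159.9 in theirs. Without the 8 arrays with the fewest dim probe sets, 2 of which were 1,4-dichlorobenzene vehicle rats at 6 h, 4 of the 7 values remained called (Asns, Chac1 and Fgf21 did not), and at 1500 mg/kg and 6 h 2 of 4 (Trib3 and Chac1 did not).

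At 1500 mg/kg 4 or 5 genes differed at each time. At 6 h Gdf15 (3.10 ± 0.68), Chac1 (1.84 ± 0.54), Trib3 (1.35 ± 0.40) and Atf4 (0.60 ± 0.18) were higher with the 1,2-isomer (2.79% of all genes). At 24 h Gdf15 (2.86 ± 0.68), Ddit3 (2.07 ± 0.52), Sesn2 (1.46 ± 0.34) and Atf4 (0.85 ± 0.18) were higher (8.32%). In the same rats Trib3 differed by -0.07 ± 0.40 with an interval of -0.85 to 0.72, and Asns by -0.07 ± 0.41 with an interval of -0.89 to 0.76, where each isomer had changed both genes by over 2 (log2). Fgf21 was lower with the 1,2-isomer, the 1 such value of 72 (-1.75 ± 0.62, interval -2.98 to -0.51, adjusted p = 0.033, 12.9% of all genes lower), and it lost its call when 1 rat was left out (-1.38 to -1.70), namely dosed rat 1 or 2 or vehicle rat 1 or 2 of the 1,2-isomer, or dosed rat 2 or vehicle rat 1 or 2 of the 1,4-isomer. At 48 h, with 2 rats given the 1,2-isomer, Fgf21, Gdf15, Asns and Trib3 were higher by 2.41 ± 0.69, 2.38 ± 0.76, 1.52 ± 0.46 and 1.27 ± 0.44 (11.5%). At 15 mg/kg, and at 150 mg/kg at 24 and 48 h, none of the 8 genes was called, although 8.64% of all genes were higher at 150 mg/kg and 24 h. With the hybridisation day as a fixed block 6 of the 19 higher values were called and 0 lower. Gdf15 and Sesn2 at 1500 mg/kg and 24 h (3.82 ± 0.85 and 1.73 ± 0.44) were among the 6.

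**Figure D5:**
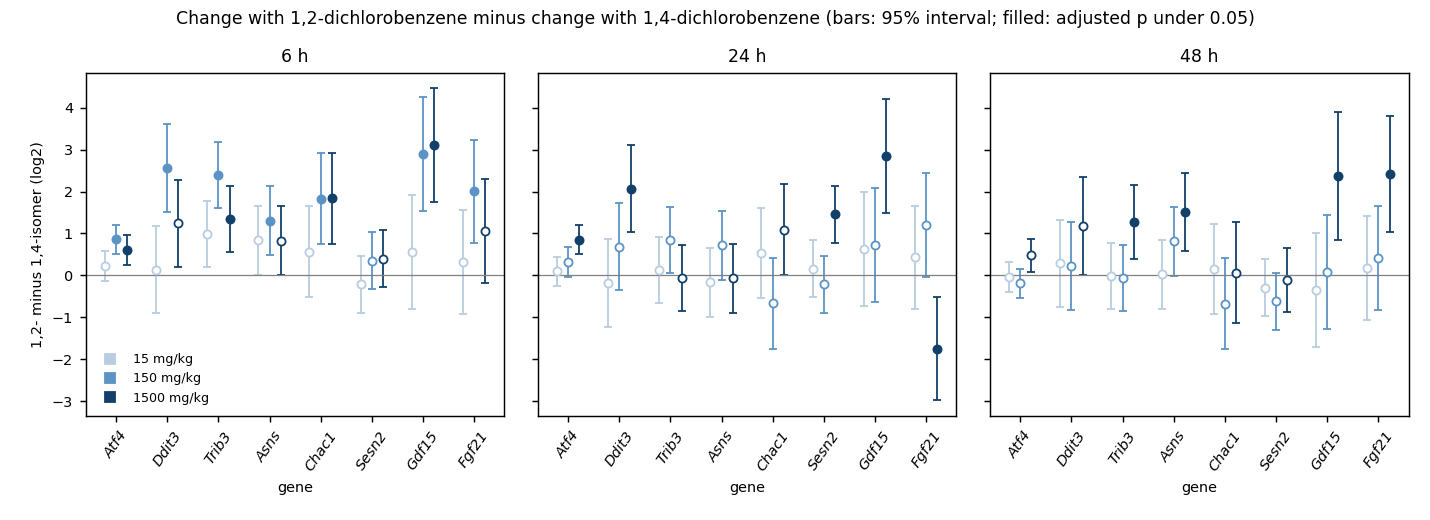
The y axis is the log2 change with 1,2-dichlorobenzene minus that with 1,4-dichlorobenzene for each gene on the x axis, in 1 panel per time, with darker points for higher doses, bars for 95% intervals and filled points for adjusted p under 0.05. Of the 72 points 19 filled ones lie above 0 and 1, Fgf21 at 1500 mg/kg and 24 h, below.

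Necrosis was compared within groups that held both necrotic and non-necrotic rats, 28 groups with 63 necrotic and 73 other rats. All 8 genes were higher in the necrotic rats: Ddit3 by 0.67 ± 0.09, Trib3 by 0.50 ± 0.09, Asns by 0.36 ± 0.10, Gdf15 by 0.34 ± 0.13, Chac1 by 0.34 ± 0.11, Fgf21 by 0.31 ± 0.12, Sesn2 by 0.27 ± 0.07 and Atf4 by 0.16 ± 0.04 on the log2 scale. Over all genes 16.6% were higher and 14.4% lower. Necrotic rats had the higher mean of Ddit3 in 21 of 28 groups and of Trib3 in 14. The result rested largely on diquat. Without the diquat groups Ddit3 alone was called (0.41 ± 0.11), and Atf4, Asns, Chac1 and Fgf21 turned to slightly negative values. In diquat groups alone 7 genes were called, with Trib3 (0.97 ± 0.16), Ddit3 (0.94 ± 0.14) and Asns (0.83 ± 0.15) leading, and Gdf15 was not (0.47 ± 0.20, adjusted p = 0.061). The shares of all genes given above belong to the fit of all rats. They were not counted for the fits without diquat and of diquat alone. Outside diquat the widest split was in 1,2-dichlorobenzene 150 mg/kg at 6 h, where Ddit3 averaged 3.59 higher on the log2 scale in the 3 necrotic rats than in the other rat.

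Other genes of the pathway were read at the highest dose at 24 h, from lists chosen for their role. Of the 64 values of the 8 genes there, 41 rose and 1 fell, while over all genes in these 8 groups 20.2% rose and 15.4% fell. The share of all genes that rose and fell was 22.3% and 20.9% after 1,2-dichlorobenzene, 18.6% and 14.7% after 1,4-dichlorobenzene, 23.5% and 16% after bromobenzene and 6.07% and 5.18% after monocrotaline 50 mg/kg. It was 27.2% and 18.9% after N-nitrosomorpholine, 30.5% and 22.5% after thioacetamide, 21.4% and 15% after galactosamine and 12% and 9.64% after diquat. The counts of list members are to be read against these shares. The amino acid transporters under ATF4 differed between compounds: 8 of 9 measured rose and 0 fell after 1,2-dichlorobenzene (median change 2.44, against 0.09 over all genes) and after bromobenzene (1.81, against 0.17), and 7 rose after 1,4-dichlorobenzene (1.22, against 0.00). After thioacetamide 6 rose and 0 fell (1.57, against 0.04), after galactosamine 6 rose and 1 fell, after N-nitrosomorpholine 5 rose and 1 fell and after diquat 3 rose and 0 fell. After monocrotaline 50 mg/kg 1 rose and 2 fell, Slc6a9 (-0.58 ± 0.17), a glycine carrier, and Slc1a4 (-1.39 ± 0.43), a carrier of small neutral amino acids. Slc3a2, the heavy chain of several amino acid exchangers, rose by 3.17 ± 0.13 after 1,2-dichlorobenzene and 2.42 ± 0.17 after bromobenzene. Slc7a11, its cystine-importing partner, rose by 5.52 ± 0.45 after 1,2-dichlorobenzene. Slc1a5, a glutamine carrier, rose by 4.92 ± 0.40 and Slc38a2 by 3.08 ± 0.14 after thioacetamide. The list of amino acid synthesis and transfer RNA charging was measured only in part, and the 10 genes measured were split. No enzyme that charges transfer RNA is among the genes named here. After 1,4-dichlorobenzene 6 of the 10 rose, among them Phgdh (4.90 ± 0.47) and Psat1 (2.94 ± 0.29) of serine synthesis, and 3 fell. After N-nitrosomorpholine 1 rose and 5 fell, led by Cth (-2.14 ± 0.13), which makes cysteine, Aldh1l2 (-1.94 ± 0.10) and Gpt2 (-2.05 ± 0.13). Cth also fell after 1,2-dichlorobenzene (-3.09 ± 0.17), bromobenzene (-3.32 ± 0.17), thioacetamide (-3.34 ± 0.16), galactosamine (-3.67 ± 0.60), 1,4-dichlorobenzene (-1.22 ± 0.13) and diquat (-1.30 ± 0.32), and was -0.24 ± 0.12 and not called after monocrotaline 50 mg/kg.

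Of 13 measured regulators of the same branch, Atf3 rose by 6.27 ± 0.42 after thioacetamide and 5.51 ± 0.43 after N-nitrosomorpholine. Ppp1r15a, which ends the response by restoring eIF2 alpha, rose by 3.82 ± 0.18 and 2.90 ± 0.26 in the same groups. Atf5, a relative of Atf4, fell after bromobenzene (-2.85 ± 0.18), galactosamine (-1.77 ± 0.33), 1,2-dichlorobenzene (-1.12 ± 0.13) and diquat (-1.02 ± 0.19). The list as a whole was split, with 6 up and 5 down after thioacetamide and 8 up and 0 down after 1,4-dichlorobenzene. A list of ER chaperones and sensors of the other branches of ER stress (ATF6 and XBP1) was counted in the same groups. Of 15 measured, 11 fell and 1 rose after thioacetamide, 8 fell and 2 rose after 1,2-dichlorobenzene and 9 fell and 0 rose after 1,4-dichlorobenzene. After galactosamine 3 fell and 1 rose, and after monocrotaline 50 mg/kg 2 fell and 0 rose. After diquat 4 rose and 0 fell, after N-nitrosomorpholine 6 rose and 5 fell and after bromobenzene 3 rose and 2 fell. Among the eIF2 alpha kinases and initiation factors 6 of 11 rose and 2 fell after each dichlorobenzene, with the eIF2 alpha subunit Eif2s1 at 1.56 ± 0.11 and 1.30 ± 0.12. NRF2 targets, the antioxidant genes, rose in 9 of 9 cases after both dichlorobenzenes and after bromobenzene.

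Genes that answer to the same fasting receptor as Fgf21 were also read. Of 9 measured PPAR alpha fasting genes 6 fell and 0 rose after bromobenzene at 24 h, with Ehhadh at -4.21 ± 0.16. After thioacetamide 5 fell, with Cpt1a at -2.47 ± 0.16. After 1,4-dichlorobenzene, where Fgf21 rose at 24 h, 4 rose and 3 fell, Acot1 (3.41 ± 0.49) being higher and Pdk4 (-2.16 ± 0.28) and Angptl4 (-2.06 ± 0.26) lower. Fgfr4, the main FGF receptor of hepatocytes, fell after galactosamine (-1.65 ± 0.34), thioacetamide (-1.47 ± 0.17), N-nitrosomorpholine (-1.15 ± 0.16), 1,2-dichlorobenzene (-0.94 ± 0.16), diquat (-0.55 ± 0.15) and 1,4-dichlorobenzene (-0.43 ± 0.14). Hepatocyte markers fell in 7 of 9 cases after thioacetamide at 24 h and in 1 to 4 of 9 after the other compounds, and their part in these falls was not tested.

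The genes outside the 8 with the most similar pattern over the 98 group means were, for Ddit3, Atf3 (r = 0.885), Rassf1 (0.879) and Ppp1r15a (0.878). For Gdf15 they were Jun (0.904), Atf3 (0.88) and LOC100912041 (0.853), and for Atf4 Otud1 (0.859), Gadd45a (0.85) and Ier2 (0.849). Trib3 was most like Maff (0.877), Gnl3 (0.872) and Srxn1 (0.868), and Asns was most like Snx10 (0.828), Psat1 (0.825) and Psmd13 (0.798). Chac1 had Zfp36 (0.774), Igfbp1 (0.762) and Clk1 (0.756), Fgf21 had Gch1 (0.739), Ciapin1 (0.709) and Osgin1 (0.688), and Sesn2 had Rnf169 (0.725), Il17ra (0.724) and Tp53inp1 (0.683). Among the 8 genes themselves r ran from -0.28 for Sesn2 and Fgf21 to 0.813 for Ddit3 and Gdf15. Atf4 stood at 0.796 with Trib3 and 0.795 with Gdf15, and Sesn2 at 0.095 with Atf4, 0.019 with Trib3 and 0.0092 with Asns. These correlations describe groups that share doses, vehicles and arrays and carry no test.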

How the data were processed

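Liver RNA was labelled rat by rat and hybridised to Affymetrix arrays. The deposited values are log2 MAS5 signals, which the authors scaled to a 2% trimmed mean of 500 per array. Further settings of their pipeline are not given in the sources used here. The values were turned to log2(signal + 16), the pseudocount being 16, and 1 probe set per gene was kept, the one with the highest mean, among the 20826 probe sets with 1 symbol (14217 genes). Fits used limma 3.58.1 in R 4.3.3, 1 per compound, with all its arrays and 1 coefficient per group, with data.table version 1.17.8 and Python 3.11.15. P-values were adjusted (Benjamini-Hochberg) over all genes in each comparison, with a threshold of 0.05. The isomers shared 1 fit, and necrosis (score of at least 1) was fitted within the 98 groups. The scripts were tested on simulated data. Genes named from pathway lists were taken from the up to 3 called members with the smallest adjusted p in a comparison. Cth was also given for every compound, whatever its rank or call. The 3 most similar genes were taken by Pearson r. The 8 genes and all lists were chosen with earlier results of these data known. The differences between galactosamine or monocrotaline doses and between 48 and 6 h, the fits without 8 arrays, without 3 groups and of diquat alone were chosen after seeing the data. Promoter sequences are from RefSeq (GRCr8), used for names and sequence only. The number of arrays limits the precision. Rats are separate animals, so p-values measure the spread between rats. Where dosed and vehicle arrays shared no hybridisation day, that spread does not cover a difference between days. Alternatives were other pseudocounts, probe set rules, normalizations and samples in a fit, the hybridisation day as a block and leaving out each replicate.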

Additional observations from a re-analysis of the deposited data

Results flagged for a closer look

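Among 128 groups of 4 to 6 rats (the highest dose and its vehicle at 24 h, 8 genes), 9 held 1 rat far from the others, and chance alone flags about 1 in 20 groups. Among dosed rats, rat 1 of monocrotaline 50 mg/kg had a Ddit3 signal of 399, the others 289 to 297. Rat 3 of the same group had a Trib3 signal of 426, the others 245 to 266, and an Asns signal of 93.7, the others 145 to 152. Rat 2 of galactosamine 400 mg/kg had an Asns signal of 230.3, the others 389 to 422. Rat 2 of N-nitrosomorpholine 300 mg/kg had a Chac1 signal of 260.2, the others 516 to 592, and rat 3 of thioacetamide 150 mg/kg had 706, the others 2277 to 2691. Among vehicle rats, rat 1 of 1,2-dichlorobenzene had an Atf4 signal of 6592, the others 5598 to 5684, rat 1 of N-nitrosomorpholine a Trib3 signal of 273, the others 392 to 413, and rat 1 of bromobenzene a Gdf15 signal of 93.9, the others 177 to 195.

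The change against vehicle differed between 24 h and 6 h in 26 of 64 tests at the highest dose (limma, adjusted over all genes). Over all genes 15.6% of such differences were higher and 11.1% lower. Each value is the log2 change at 24 h minus that at 6 h. Trib3 differed by -2.20 with monocrotaline, -1.76 with bromobenzene, -1.33 with N-nitrosomorpholine, -1.04 with thioacetamide, 1.64 with 1,4-dichlorobenzene and 1.69 with galactosamine. Ddit3 differed by -1.91 with bromobenzene, -1.29 with monocrotaline, 1.16 with 1,4-dichlorobenzene, 1.88 with galactosamine and 1.99 with 1,2-dichlorobenzene. Atf4 differed by -0.84 with monocrotaline, -0.68 with N-nitrosomorpholine, 0.58 with 1,2-dichlorobenzene and 0.84 with galactosamine. Fgf21 differed by -5.52 with bromobenzene, -2.66 with thioacetamide and -2.02 with 1,2-dichlorobenzene. Gdf15 differed by -2.73 with thioacetamide, -2.55 with bromobenzene and -1.86 with diquat. Chac1 differed by -1.89 with bromobenzene and -1.77 with diquat, Sesn2 by 0.57 with thioacetamide and 1.50 with galactosamine, and Asns by 1.93 with 1,4-dichlorobenzene.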

How the results depend on the processing

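Of the changes against vehicle, 183 were higher and 10 lower. With the hybridisation day as a fixed block 480 of 592 values could be estimated, and 87 were higher and 2 lower. The count of lower values was 4 with all arrays in 1 fit and 16 with arrays centred on their median, and leaving out 1 replicate number at a time gave 5 to 10. Of the 193 called values, 158 kept their call with all arrays in 1 fit, 183 with the day as a random block, 180 with centred arrays and 177 with quantile normalization, and all 193 kept their sign under these 4 settings. For 24 h minus 6 h, 10 differences were higher and 16 lower, with 4 and 1 under the fixed day block, and 5 to 10 higher with a replicate left out. For the isomers 19 were higher and 1 lower, with 6 and 0 under the fixed day block, 0 lower at a pseudocount of 1 and 0 to 1 lower with an array left out. At the highest dose at 24 h 41 rose and 1 fell. The falls numbered 0 with all arrays in 1 fit, 3 with centred arrays, with only the 2 groups compared or with the brighter genes alone (of 48 values), 4 with quantile normalization and 0 to 2 with an array left out. Besides the 2 Chac1 rises named above, calls were lost there for Ddit3 with 1,4-dichlorobenzene without dosed rat 1 (0.57) or vehicle rat 2 (0.65) or 3 (0.63), for Asns with bromobenzene without dosed rat 1 (0.76) or vehicle rat 3 (0.74), for Asns with thioacetamide without dosed rat 1 (0.57) or 3 (0.53) or vehicle rat 1 (0.62) or 4 (0.53), and for Atf4 with monocrotaline without dosed rat 1 or vehicle rat 3 (-0.34 each). Calls were gained for Fgf21 with bromobenzene without dosed rat 4 (-1.17) or vehicle rat 1 (-1.24), for Fgf21 (-1.52) and Asns (1.12) with galactosamine without dosed rat 2, and for Fgf21 (1.07) with 1,2-dichlorobenzene without dosed rat 2. Within a shared hybridisation day only 2 of these 8 comparisons could be fitted (1,2-dichlorobenzene and bromobenzene), where 12 of 14 calls held. In necrotic rats 8 genes were higher, 5 with centred arrays and 1 without diquat, where Asns (-0.076), Atf4 (-0.025), Chac1 (-0.056) and Fgf21 (-0.076) changed sign. On the mean of all probe sets Sesn2 changed sign after bromobenzene at 24 h (-0.088) and for 24 h minus 6 h after thioacetamide (-0.30). Of the tests added after seeing the data, 2 calls were lost without the 8 arrays with the fewest dim probe sets, Gdf15 for galactosamine 100 minus 400 mg/kg at 6 h (1.04) and for 48 h minus 6 h after diquat (-1.59). The causes were not tested. No paired analysis was possible because the labels give no replicate numbers and the numbers used here follow accession order.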
